A study of Bos taurus with 6 samples.

Results

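The nuclear receptors are transcription factors that bind DNA through a zinc finger domain, and most of them change their activity when a small fat-soluble ligand, such as a steroid, a thyroid hormone, an oxysterol or a fatty acid, enters a pocket in the protein. Receptors with no known or no required ligand are called orphan receptors. In pluripotent cells the orphan receptors NR5A2 (LRH-1) and NR6A1 (GCNF) are known for acting on POU5F1 in opposite directions, NR5A2 as an activator and NR6A1 as a repressor during differentiation, and the COUP-TF receptors NR2F1 and NR2F2 are known for their roles in neural, mesenchymal and vascular development.

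The 10 genes described here are orphan and hormone receptors apart from ESRRB and the retinoid receptors, namely NR2F1, NR2F2, NR2F6, NR5A2, NR6A1, NR3C1, ESRRA, PPARD, THRA and NR1H2. They were chosen by name, with earlier results of these data known, and all 10 were found among the 19163 genes of the count table. The other 38 genes of the nuclear receptor family were used for comparison. The RNA came from F7, a single line of bovine embryonic stem cells derived from embryos fertilized in vitro (Holstein Friesian). F7 was grown for 15 passages on mouse embryonic fibroblasts (MEFs) that were either alive but kept from dividing by mitomycin C (MC-F7), or killed by methanol fixation (MT-F7), and each group had 3 libraries. Both groups were kept in the same customized mTeSR1 medium with FGF and the Wnt inhibitor IWR1, but the medium was changed every day on the living feeders and every other day on the fixed ones. The kind of feeder and the feeding schedule cannot be told apart in this comparison. Cells were dissociated and held briefly on gelatin, and those that stayed afloat were collected. No step that separates mouse from bovine reads is described in the sources used here. The authors report a higher rate of alignment to the bovine genome in MT-F7 than in MC-F7. They propose that fixed feeders left less feeder cell contamination. The part of mouse reads in the values was not tested.

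Libraries held between 21958386 and 24933430 counts on genes, and the mitochondrial share of the counts was 16.3% to 28.3%, with the highest share of each group in replicate 3. Levels are given as counts per 1000000 counts (CPM) after TMM normalization (mean ± SD, n = 3), and 13001 genes passed the filter on low counts and were compared by edgeR's quasi-likelihood test with Benjamini-Hochberg adjustment over all of them. The median log2 fold change of all tested genes was -0.0026. Log2 fold changes are MT-F7 over MC-F7, and an adjusted p under 0.05 was the threshold for a change. Whether each library had a culture of its own is not stated, so the p-values cover the spread between these libraries, which may be technical. The cells of both groups had the pluripotency genes POU5F1, NANOG, LIN28A, SALL4, EPCAM and TDGF1, whose summed level was 1046 to 1743 CPM in MC-F7 and 629 to 699.8 CPM in MT-F7, and the trophectoderm gene CDX2 had 0 counts in every library. All of these pluripotency genes but SALL4 fell in MT-F7.

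Of the 10 receptors, 9 passed the filter and NR5A2 did not. NR2F1 and NR2F2 rose in MT-F7 and ESRRA fell. The remaining 6 tested receptors did not reach the threshold. A change was therefore called in 3 of 9 (33.3%), where it was called in 23.2% of all tested genes. For higher genes the shares were 2 of 9 against 11.9%, and for lower genes 1 of 9 against 11.3%. In CPM, the MC-F7 and MT-F7 libraries did not overlap in 6 of the 9 tested receptors, against 40% of all tested genes. By direction, 2 of 9 did not overlap and were higher (19.9% of all tested genes) and 4 of 9 did not overlap and were lower (20.1%). An unadjusted p under 0.05 with an absolute log2 fold change over 1.5, the size rule used as an alternative, was met by NR2F1 and NR2F2, 2 of 9 against 6.58%. These shares rest on 9 genes, and nothing is read from them about the receptors as a set.

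**Figure D1:**
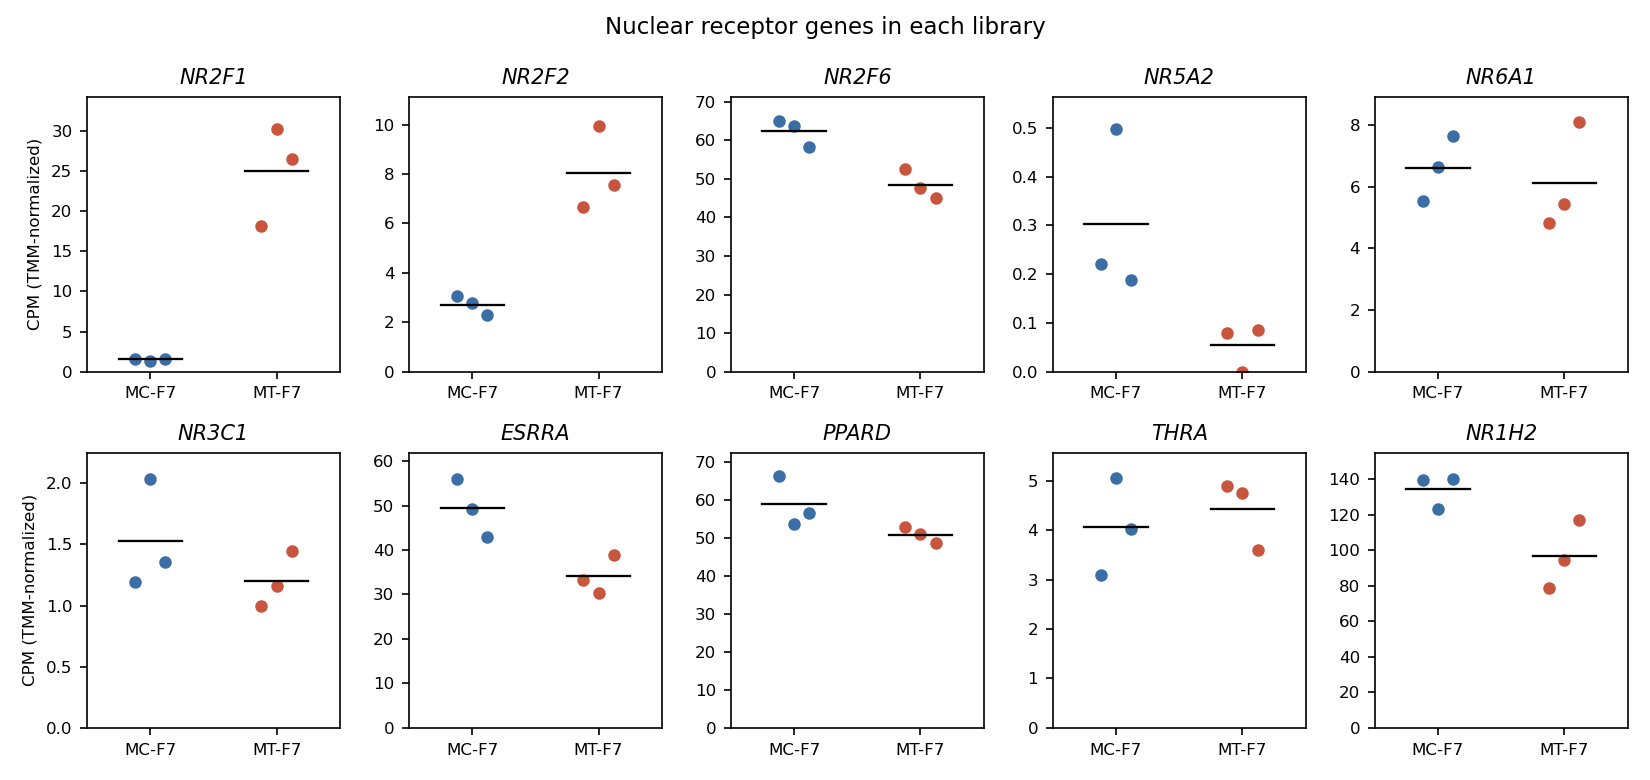
Level of each of the 10 receptor genes in CPM (linear axis from 0, TMM-normalized), with 1 point per library and a line at the mean of the 3 MC-F7 (blue) and 3 MT-F7 (red) libraries. The MT-F7 points of NR2F1 lie between 18.2 and 30.3 CPM and those of MC-F7 between 1.33 and 1.64 CPM, and the groups overlap in NR6A1, NR3C1 and THRA.

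Among the 9 tested receptors, the COUP-TF receptors NR2F1 and NR2F2 had the log2 fold changes largest in size. NR2F1 (COUP-TFI, Entrez gene 327684) regulates patterning of the developing forebrain and eye. It had 1.59, 1.33 and 1.64 CPM in the MC-F7 libraries and 18.2, 30.3 and 26.6 CPM in the MT-F7 libraries, from 36, 32 and 35 counts against 457, 785 and 626. Every MT-F7 library lay far above every MC-F7 library, and the MC-F7 values were close together. The level of NR2F1 rose 16.5-fold (95% interval 11.4 to 23.8), with a log2 fold change of 4.04 ± 0.246 (SE; adjusted p = 6.5e-07). By the size of the log2 rise it ranked 22 among the 13001 tested genes. NR2F1 passed the threshold in each of the 6 fits that left out 1 library, with log2 fold changes from 3.88 to 4.22.

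NR2F2 (COUP-TFII, 281945), the closest relative of NR2F1 and a regulator of mesenchymal, venous and atrial development, rose less. Its levels were 3.05, 2.78 and 2.29 CPM in MC-F7 and 6.65, 9.93 and 7.56 CPM in MT-F7, again with no overlap. The rise was 2.97-fold (95% interval 2.06 to 4.27), with a log2 fold change of 1.57 ± 0.242 (SE; adjusted p = 5.3e-04), and NR2F2 passed in all 6 fits with 1 library left out. NR2F1 and NR2F2 are similar in sequence, and how reads shared between them were counted is not given in the sources used here.

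NR2F6 (EAR2, 100296331), the third gene of the COUP-TF group, is a broadly expressed repressor. It had 65.1, 63.7 and 58.2 CPM in MC-F7 and 52.5, 47.6 and 44.9 CPM in MT-F7. The MT-F7 values all lay below the MC-F7 values, but with a log2 fold change of -0.37 ± 0.145 (SE; adjusted p = 0.087) NR2F6 did not pass. Its 95% interval, from -0.68 to -0.05, leaves room for a decrease of up to 1.60-fold. With both libraries numbered 3 left out, a setting chosen after the data had been seen, its log2 fold change of -0.35 passed (adjusted p = 0.030).

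Levels of different genes can be compared only per gene length, for which the deposited length-scaled values were rescaled to 1000000 per library (here called TPM). On this scale NR2F6 made up 95.4% ± 0.241 of the summed COUP-TF level in MC-F7 and 65.0% ± 6.90 in MT-F7. NR2F1 made up 1.96%, 1.68% and 2.26% in the MC-F7 libraries and 21.3%, 32.2% and 31.1% in the MT-F7 libraries. NR2F2 went from 2.64% ± 0.228 to 6.85% ± 1.05. NR2F2 stood above NR2F1 in each MC-F7 library, with 1.45, 1.59 and 1.06 units of NR2F2 to 1 of NR2F1, and below it in each MT-F7 library, with 0.277, 0.248 and 0.215. The mean log2 of this ratio was lower by 2.46 in MT-F7. The exact permutation test, two-sided, gave p = 0.1, the smallest that 3 libraries against 3 allow, for this ratio and for each of the 3 shares. The summed level of the 3 genes was 44.1 ± 3.82 TPM in MC-F7 and 53.3 ± 5.17 TPM in MT-F7, with the same p.

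**Figure D2:**
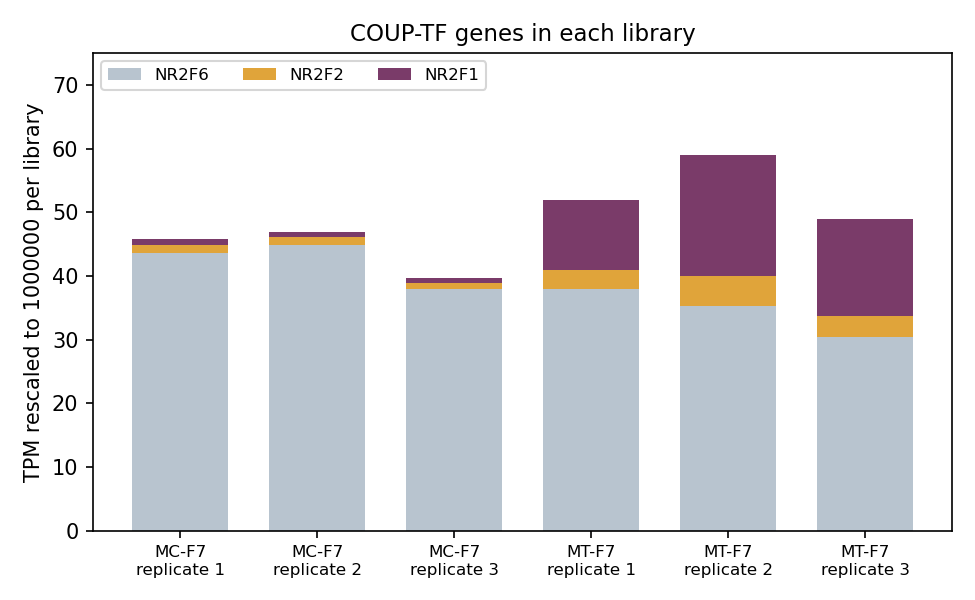
Stacked bars of the length-scaled level (TPM rescaled to 1000000 per library, linear axis from 0) of NR2F6, NR2F2 and NR2F1, 1 bar per library. NR2F1 is a thin band of at most 2.26% in the MC-F7 bars and at least 21.3% of each MT-F7 bar, while the total height is 39.7 to 46.8 TPM in MC-F7 and 48.9 to 59.0 TPM in MT-F7.

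Values for other cell types moved in the same comparison. The summed level of 12 fibroblast genes was 224 to 301 CPM in MC-F7 and 343 to 396 CPM in MT-F7, where COL3A1, PDGFRB and POSTN rose and the other 9 did not pass. Among these other 9, PRRX1 and TWIST1 were low in both groups. They stood at 0.670 and 2.26 CPM in MC-F7 and at 0.215 and 2.93 CPM in MT-F7. The summed level of 6 neural genes was 476 to 547 CPM in MC-F7 and 569.8 to 652 CPM in MT-F7. PAX6 was the one of 3 tested that rose, with a log2 fold change of 2.92 (adjusted p = 7.65e-07), while NEUROG2 had 0 counts in all MT-F7 libraries. The other 2 tested neural genes did not pass, with log2 fold changes of 0.40 and -0.22. The summed levels of mesoderm and endoderm genes (10.7 to 11.9 CPM against 3.98 to 4.08) and of trophectoderm genes (52.2 to 78.6 CPM against 7.30 to 8.68) were lower in MT-F7. Of 8 mesoderm and endoderm genes 2 were tested, EOMES and FOXA2, and both fell, while HAND1 and GATA4 had 0 counts throughout. Of 6 trophectoderm genes 3 were tested, and GATA2 and KRT7 fell, with log2 fold changes of -1.70 and -3.34. The third tested gene did not pass (-0.017), and the other 3 had too few counts to be tested. Among the marker genes named as changed, LIN28A, EOMES and PDGFRB each lost the call in 3 of the 6 fits with 1 library left out (adjusted p up to 0.0925, 0.0749 and 0.0655), GATA2 in 4 (up to 0.111) and POSTN in 1, that without MT-F7 replicate 2 (0.0591). These were the fits without MC-F7 replicate 2 or MT-F7 replicate 1 or 2 for LIN28A and EOMES, without MC-F7 replicate 1 or 2 or MT-F7 replicate 3 for PDGFRB, and without MC-F7 replicate 1 or 3 or MT-F7 replicate 1 or 2 for GATA2. The part of these cell type differences in the rise of NR2F1 and NR2F2 was not tested, and in bulk RNA more cells with a gene and more RNA per cell cannot be told apart.

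Of the known COUP-TF partners BCL11A (CTIP1), BCL11B (CTIP2), ZFPM1 and ZFPM2 (FOG2), only BCL11A and ZFPM1 had enough counts to be tested. BCL11A, a repressor first isolated through its binding to COUP-TF, averaged 3.95 ± 0.479 CPM in MC-F7 and fell to 1.32 ± 0.454 CPM, a log2 fold change of -1.58 ± 0.317 (SE; adjusted p = 0.0033). ZFPM1 had a log2 fold change of -0.35 (adjusted p = 0.38). BCL11B was seen with 5 counts in a single MC-F7 library, and ZFPM2 with 4 counts in each of 2 MT-F7 libraries.

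The genes whose profile over the 6 libraries lay nearest to that of NR2F1, by Euclidean distance between centred log2(CPM + 0.1) values, were FGF10 (distance 0.275), CRYBB3 (0.502) and DLX5 (0.594). Their log2 fold changes were 4.14, 4.68 and 4.01. The nearest to NR2F2 were ANXA5 (0.198), DPYSL3 (0.232) and ARHGAP18 (0.240), with log2 fold changes of 1.57, 1.64 and 1.63. All 6 genes were higher in MT-F7, as their likeness to NR2F1 and NR2F2 requires.

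NR5A2 (541305) was the scarcest of the 10 genes. Its MC-F7 libraries held 5, 12 and 4 counts and its MT-F7 libraries 2, 0 and 2, or 0.302 ± 0.170 against 0.0549 ± 0.0476 CPM. Every MT-F7 library was below every MC-F7 library and at or below 3 counts, the smallest amount taken as detected (0.120 to 0.137 CPM at these depths). The summed counts, 21 against 4, gave a ratio of 5.75 of MC-F7 to MT-F7 (95% interval 1.94 to 23.0, exact binomial, counting error only). When all genes with at least 1 count were kept, its log2 fold change was -2.38 ± 1.12 (SE; adjusted p = 0.152 by edgeR's quasi-likelihood test), and DESeq2 gave -2.48 (adjusted p = 0.165). The difference did not pass at this depth.

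NR6A1 (541257) was more abundant than NR5A2 and differed little between the groups. Its levels were 5.53, 6.63 and 7.67 CPM in MC-F7 and 4.82, 5.45 and 8.11 CPM in MT-F7. Replicate 3 was the highest of both groups, and the groups overlapped. The log2 fold change was -0.11 ± 0.244 (SE; adjusted p = 0.79), with a 95% interval from -0.64 to 0.42, and its direction turned when MC-F7 replicate 3 or MT-F7 replicate 1 was left out (0.0013 and 0.025). Per length, NR5A2 made up 1.13%, 2.10% and 0.693% of the sum of both genes in the MC-F7 libraries, against 0.470%, 0% and 0.299% in the MT-F7 libraries (exact permutation test, two-sided, p = 0.1, the smallest possible). NR6A1 was the more abundant of both genes in all 6 libraries.

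Of 6 pluripotency genes linked to these receptors, POU5F1, NANOG and TDGF1 (Cripto) fell and TBX3 rose, while KLF2 and KLF4 did not pass. The median log2 fold change of these 6 was -1.17. For TBX3 the MC-F7 libraries held 3, 6 and 0 counts and the MT-F7 libraries 35, 53 and 37, for a log2 fold change of 3.62 ± 0.627 (SE; adjusted p = 0.0012). TDGF1 had a log2 fold change of -2.65 ± 0.250 (SE; adjusted p = 1.1e-05).

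ESRRA (ERR-alpha, 507834), an orphan receptor that works with the PGC-1 coactivators on genes of mitochondrial energy metabolism, fell in MT-F7. It had 56.0, 49.2 and 42.9 CPM in MC-F7 and 33.2, 30.4 and 38.9 CPM in MT-F7. All MT-F7 values lay below all MC-F7 values, though the gap between 42.9 and 38.9 CPM was small beside the spread within the groups. The fall was 1.44-fold (95% interval 1.13 to 1.85), with a log2 fold change of -0.53 ± 0.164 (SE; adjusted p = 0.033). This call was lost when MC-F7 replicate 1 or 2 or MT-F7 replicate 1 or 2 was left out (adjusted p = 0.110, 0.110, 0.105 and 0.138), and in the length-scaled values tested with limma (adjusted p = 0.0950 to 0.152 over 3 settings). Without both libraries numbered 3, the log2 fold change was -0.71 (adjusted p = 5.3e-04). The annotated span of ESRRA overlaps that of TRMT112 in the RefSeq assembly ARS-UCD2.0, and TRMT112 had a log2 fold change of 0.10 (adjusted p = 0.68).

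Of 8 genes linked to ESRRA, IDH3A, a citric acid cycle subunit, fell with a log2 fold change of -0.47 ± 0.155 (SE; adjusted p = 0.046), and SPP1 (osteopontin), a secreted matrix protein, rose with 2.17 ± 0.229 (SE; adjusted p = 2.9e-05). CYCS, ATP5F1B, ACADM, MFN2 and GABPA did not pass, and the median of the 8 was -0.072. The call of IDH3A held only without MC-F7 replicate 3 among the 6 fits that left out 1 library, with an adjusted p of 0.0829 to 0.155 in the other 5, while SPP1 passed in all 6. Among the PGC-1 coactivators, PPARGC1B fell with a log2 fold change of -1.88 ± 0.419 (SE; adjusted p = 0.0060), PPARGC1A (1.44, adjusted p = 0.073) and PPRC1 (-0.49, adjusted p = 0.064) did not pass, and the levels of PPARGC1A were 0.331 CPM in MC-F7 and 0.897 CPM in MT-F7.

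NR1H2 (LXR-beta, 509622), a receptor for oxysterols that controls cholesterol export and lipid synthesis, was the most abundant of the 10 genes. It had 139.8, 123 and 140.4 CPM in MC-F7 and 78.8, 94.3 and 117 CPM in MT-F7, with no overlap but a wide spread in MT-F7. Its log2 fold change, -0.47 ± 0.168 (SE; adjusted p = 0.058), stayed just outside the threshold. NR1H2 passed without MT-F7 replicate 3 (-0.64, adjusted p = 0.0091), without both libraries numbered 3 (-0.59, adjusted p = 0.0020) and by DESeq2 (adjusted p = 0.041). Its 95% interval ran from -0.84 to -0.11. NR1H3 (LXR-alpha), its paralog, stood at 13.8 and 18.0 CPM on average, higher in every MT-F7 library, with a log2 fold change of 0.39 (adjusted p = 0.11). Of 8 tested LXR target genes 1 passed, the cholesterol exporter ABCG1, whose counts were 6, 5 and 4 on living feeders against 36, 37 and 19 on fixed ones, for a log2 fold change of 2.45 ± 0.499 (SE; adjusted p = 0.0036). SREBF1, SCD and APOE, all at over 200 CPM, did not pass (-0.22, 0.26 and 0.14), and the median of the 8 was 0.20.

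PPARD (353106), a sensor of fatty acids, had 66.2, 53.6 and 56.7 CPM in MC-F7 and 52.9, 50.9 and 48.7 CPM in MT-F7. The groups were separated by less than 1 CPM, and the log2 fold change of -0.21 ± 0.148 (SE; adjusted p = 0.34) did not pass, with a 95% interval from -0.53 to 0.11. Per length, the PPARD groups overlapped (20.1 to 24.2 TPM in MC-F7 and 18.0 to 20.8 TPM in MT-F7). Its relatives PPARA and PPARG were scarce, with means under 1 CPM in both groups. Of 8 tested PPAR target genes, CPT1A, CPT1B and ACADVL, enzymes of fatty acid oxidation, rose by 1.53, 0.75 and 0.99 on the log2 scale (adjusted p = 0.0105, 0.0081 and 0.0018), and ANGPTL4, a secreted inhibitor of lipoprotein lipase, fell with -0.75 (adjusted p = 0.047). FABP3, PLIN2 and SLC25A20 did not pass, and the median of the 8 was 0.26. The call of ANGPTL4 held in 1 of the 6 fits that left out 1 library, the one without MC-F7 replicate 3, and its adjusted p was 0.0541 to 0.178 in the other 5. CPT1B did not pass without MC-F7 replicate 2 (adjusted p = 0.0542), where 2 of the 8 passed.

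NR3C1 (glucocorticoid receptor, 281946) was low in both groups, with 1.19, 2.03 and 1.36 CPM in MC-F7 and 0.996, 1.16 and 1.44 CPM in MT-F7 from 25 to 49 counts per library. The groups overlapped, and the log2 fold change of -0.35 ± 0.373 (SE; adjusted p = 0.54) came with a 95% interval from -1.16 to 0.46, which leaves room for a level up to 2.24-fold lower at this depth. The chaperones that hold this receptor were abundant, with HSP90AB1 at 5694 and 5686 CPM, and none of HSP90AA1, HSP90AB1, PTGES3, FKBP4 and FKBP5 passed. Of 6 other tested genes of the glucocorticoid list, TSC22D3 (GILZ), DUSP1, ZBTB16 and PER1 rose by 1.74, 1.02, 1.73 and 0.67 on the log2 scale (adjusted p = 1.6e-04, 7.4e-04, 0.0245 and 0.04998), and SGK1, a kinase, fell with -1.74 (adjusted p = 1.6e-05). NFKBIA did not pass. Counted over all 11 tested genes of the list, FKBP5 and the other chaperones included, 4 rose, 1 fell and 6 did not pass. Their median log2 fold change was -0.084. ZBTB16, with 5 to 13 counts in MC-F7, did not pass without MC-F7 replicate 1 or 3 or MT-F7 replicate 1 or 2 (adjusted p = 0.0648 to 0.119). PER1 sat at the threshold and did not pass without MC-F7 replicate 1 or 2 or MT-F7 replicate 1 or 3 (adjusted p = 0.0534 to 0.187). TSC22D3, DUSP1 and SGK1 passed in all 6 of these fits. Each of these genes also responds to signals other than glucocorticoids.

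THRA (thyroid hormone receptor alpha, 532621) had 3.10, 5.06 and 4.02 CPM in MC-F7 and 4.90, 4.75 and 3.61 CPM in MT-F7. The groups overlapped, and the log2 fold change of 0.12 ± 0.258 (SE; adjusted p = 0.78) had a 95% interval from -0.44 to 0.68 and turned to -0.038 without MC-F7 replicate 1. The annotated span of THRA overlaps those of NR1D1 and MED24 in ARS-UCD2.0, and whether reads were counted by strand is not given, so reads of these neighbours cannot be told apart where the spans overlap. NR1D1 (REV-ERB-alpha, a clock repressor) had a log2 fold change of 0.33 (adjusted p = 0.60) and MED24 one of 0.31 (adjusted p = 0.19). THRB was near absent, with at most 4 counts in a library. Of 3 tested genes of thyroid hormone handling and response, CRYM, which binds thyroid hormone in the cytosol, rose (10.4 ± 3.65 CPM in MC-F7, 24.4 ± 3.61 CPM on fixed feeders) by a log2 fold change of 1.22 ± 0.240 (SE; adjusted p = 0.0029), and the corepressor HR (0.29, adjusted p = 0.78) did not pass.

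Per gene length, the order of the 10 receptors in MC-F7 was NR1H2 (72.2 ± 2.86 TPM), NR2F6 (42.1 ± 3.69), ESRRA (24.2 ± 3.56), PPARD (21.6 ± 2.22), NR6A1 (4.98 ± 0.751), THRA (1.90 ± 0.519), NR2F2 (1.17 ± 0.189), NR2F1 (0.861 ± 0.0649), NR3C1 (0.289 ± 0.0951) and NR5A2 (0.0661 ± 0.0399). ESRRA and PPARD overlapped, and the libraries of all other neighbours in this order were apart. In MT-F7, NR2F1 stood at place 5 in place of 8, with 15.1 ± 3.96 TPM, after NR1H2 (54.8 ± 9.11), NR2F6 (34.5 ± 3.77), PPARD (19.8 ± 1.57) and ESRRA (17.7 ± 1.40). Its libraries there overlapped with those of ESRRA and of PPARD. Those of PPARD also overlapped with ESRRA, and those of NR6A1 (4.85 ± 1.17) with NR2F2 (3.68 ± 0.895). THRA (2.19 ± 0.432), NR3C1 (0.237 ± 0.0364) and NR5A2 (0.0123 ± 0.0106) followed. NR1H2 and NR2F6 were the most abundant of the 10 in both groups, and NR3C1 and NR5A2 the scarcest.

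**Figure D3:**
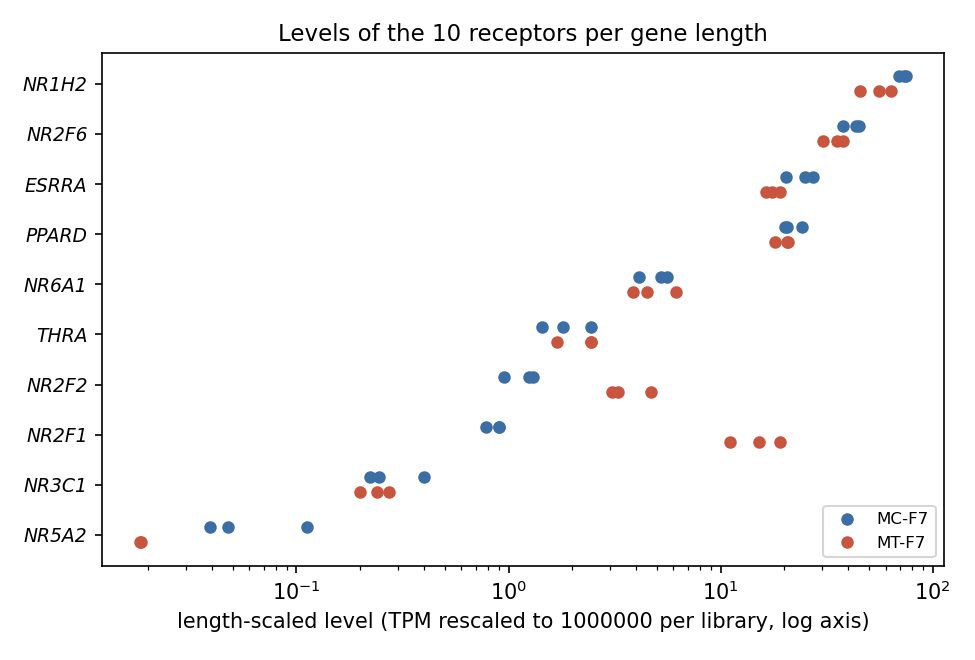
Length-scaled level of each of the 10 receptors (TPM rescaled to 1000000 per library, log axis), 1 point per library, MC-F7 in blue and MT-F7 in red. NR2F1 moved from 0.786 to 0.899 TPM in MC-F7 to between 11.1 and 19.0 TPM in MT-F7, and the MT-F7 library with 0 counts of NR5A2 cannot be drawn on this axis.

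In the rest of the nuclear receptor family, 20 of 38 genes had enough counts to be tested. The retinoid X receptor RXRG (log2 fold change 1.88, adjusted p = 0.0054) and NR2E1 (1.63, adjusted p = 0.024), known as TLX from neural stem cells, rose, both from means under 1 CPM, and neither was tested when at least 10 counts were required in every library. In all 3 fell, among them ESRRB (-2.52), a receptor of the naïve pluripotent state, and RORA (-1.75), a sterol-binding receptor known from the circadian clock (adjusted p = 3.5e-05 and 8.9e-04). NR2E1 did not pass without MC-F7 replicate 1 or 2 or MT-F7 replicate 1 or 2 (adjusted p = 0.0551 to 0.109), while RXRG passed in all 6 such fits. The other 15 did not pass, RXRA, RARA and RARG among them. The median log2 fold change was -0.26 over these 20 genes and -0.21 over the 9 tested receptors described above. Among all 29 tested nuclear receptors NR2F1 had the largest log2 fold change and ESRRA the smallest in size of those that passed.

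**Figure D4:**
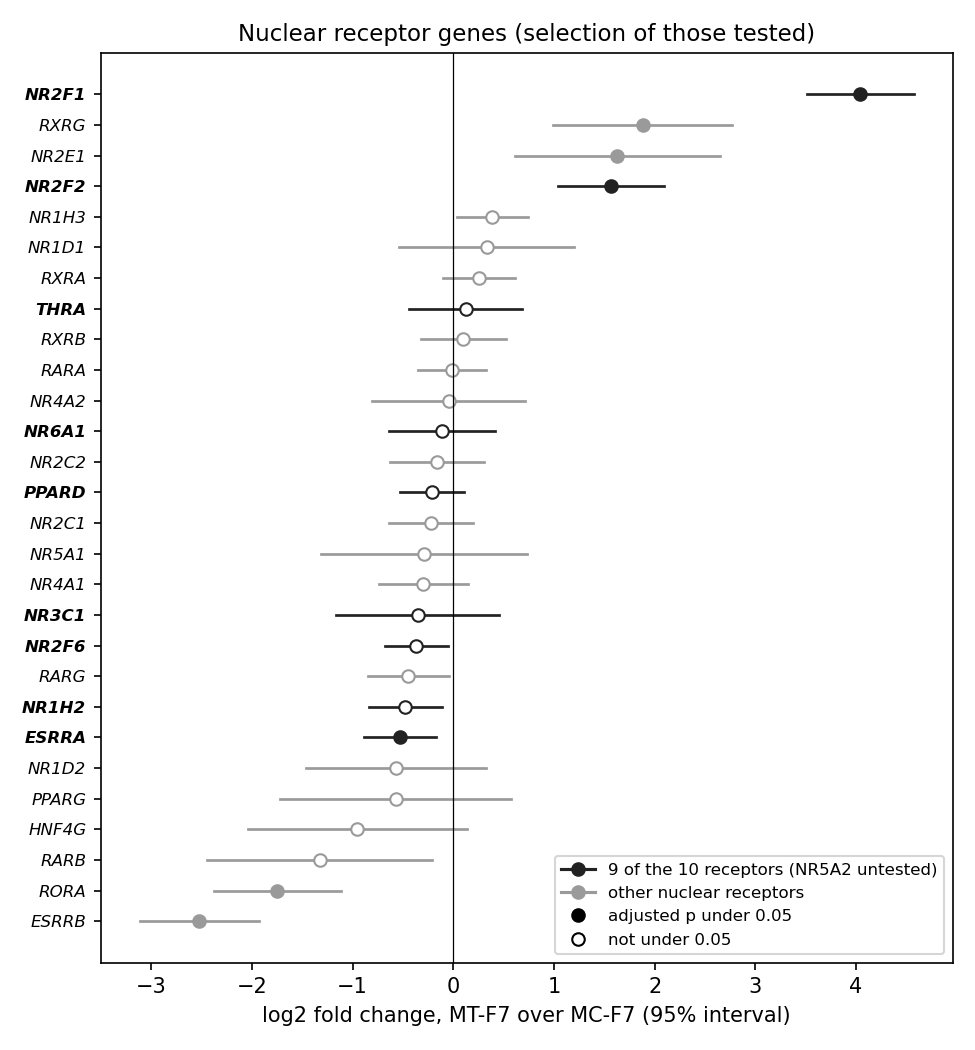
Log2 fold change of MT-F7 over MC-F7 with its 95% interval from edgeR's quasi-likelihood fit for a selection of the tested nuclear receptor genes, with the receptors described here in black and bold and the others in grey, and filled points for an adjusted p under 0.05. NR2F1 stands alone at 4.04, and the intervals of NR6A1, PPARD, NR3C1 and THRA cross 0.

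Coregulators are the proteins through which these receptors act on chromatin. Of 9 tested coactivators, NCOA1, NCOA6 and CREBBP rose by 0.77, 0.78 and 0.54 on the log2 scale (adjusted p = 0.0023, 0.0025 and 0.027) and PPARGC1B fell. CREBBP did not pass without MC-F7 replicate 1 or 2 or MT-F7 replicate 1 or 3 (adjusted p = 0.0531 to 0.144), and the other 3 passed in each of the 6 fits with 1 library left out. Of 8 corepressor genes, GPS2, a subunit of the NCOR complex, rose from 61.8 ± 5.88 to 95.1 ± 6.46 CPM (0.62, adjusted p = 0.0082). NCOR1, TBL1X and HDAC3 did not pass. The median log2 fold change was 0.54 over the 9 coactivators and 0.32 over the 8 corepressors. The call of GPS2 was lost without MC-F7 replicate 2, when none of the 8 corepressors passed.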

How the data were processed

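RNA-seq libraries of F7 cells on mitomycin C-treated feeders (labelled 1M, named MC-F7 here) and on methanol-fixed feeders (MT-F7), 3 each, were used. The authors aligned paired-end reads to an Ensembl reference genome with HISAT2 2.0.5 and deposited raw counts per Entrez gene from featureCounts 1.5.0-p3. The genome build and strand setting are not given in the sources used here. The authors also deposited length-scaled values that they call TPM, which hold library size: each gene's ratio to its count was equal across libraries (within 1%) for 9681 of 9682 genes with at least 50 counts in each. These were rescaled to 1000000 per library for levels between genes. Entrez identifiers were matched to symbols through RefSeq (ARS-UCD2.0), and 89 of 19163 had none.

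After filterByExpr (at least 10 counts by its rule, 15 in total), genes were compared with edgeR 4.0.16 in R 4.3.3 (TMM factors 0.971 to 1.04, quasi-likelihood test, no block, two-sided). Standard errors were the log2 fold change divided by the root of F. The fits were also run on simulated counts with the same dispersion for every gene and changes larger than those of ESRRA, NR1H2 and NR2F6. That run did not cover changes as small as theirs, changes in low-count genes or the permutation tests. Alternatives were RLE factors, library size only, DESeq2 1.42.0, other filters, a replicate block, left-out libraries, removal of 13 mitochondrial genes, and limma 3.58.1 on log2(TPM + 1), log2(TPM + 0.1) and rescaled TPM. For NR5A2 a share was used in place of a log ratio, because 1 library had 0 counts. The receptors and gene lists were chosen with earlier results of these data known. Named genes are the 10 receptors, list genes with an adjusted p under 0.05, up to 3 more per list with high levels, and the nearest profiles. Others were named after their values were seen. Replicates of a group differed by more than counting noise. EP300, SOX2, SOX1, DIO1 and MESP1 were not analysed here. A few list genes are not reported here.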

Additional observations from a re-analysis of the deposited data

How the results depend on the processing

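NR2F1 and NR2F2 passed the threshold under all 17 alternatives, with log2 fold changes from 1.59 to 4.22 and from 0.43 to 1.68, where the lowest values come from log2(TPM + 1), whose pseudocount shrinks low genes. ESRRA passed in 10 of 17 (-0.71 to -0.31). NR1H2 passed in 4 and NR2F6 in 2 of 17, and NR6A1, NR3C1, PPARD and THRA in none. NR6A1 turned positive with log2(TPM + 1) (0.0024), without MC-F7 replicate 3 (0.0013) and without MT-F7 replicate 1 (0.025), and THRA turned negative without MC-F7 replicate 1 (-0.038). With 1 library left out they ranged from -0.37 to 0.025 and from -0.038 to 0.31. The order of levels per length was the same in all alternatives run. Of these, the deposited scale and the removal of mitochondrial genes multiply each library by a constant, which cannot change the order within a library.

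Whether replicate numbers pair the libraries is not stated in the sources used here and was not settled. Deviations from the group means correlated across genes with 0.137, 0.0458 and 0.424 for numbers 1, 2 and 3. Correlations between libraries of different number were not computed for comparison. A fit with a replicate block gave 4674 of 13001 tested genes past the threshold in place of 3016. It gave 5 of the 9 tested receptors in place of 3 (NR2F6 and NR1H2 were added). The block also gave 3 corepressors in place of 1, 2 LXR targets in place of 1 and 4 ESRRA targets in place of 2. Without both libraries numbered 3, chosen after the data had been seen, 5 of 9 tested receptors passed (2 higher, 3 lower). Calls also rose among all genes in that setting, to 4242 of 13073 tested. An unadjusted p under 0.05 with an absolute log2 fold change over 1.5 gave 856 genes. When each library had to hold 10 counts or more, 3 other nuclear receptors passed in place of 5, 3 glucocorticoid genes in place of 5 and 0 LXR targets. RXRG, NR2E1, ZBTB16 and ABCG1 were then not tested, and PER1 was tested and had an adjusted p of 0.0547. DESeq2 and each limma fit gave 2 corepressors. Log2(TPM + 1) gave 3 glucocorticoid genes, and 1 ESRRA target passed with library size only, with all genes of at least 1 count and in each limma fit. The causes of the other shifts were not tested. With 1 library left out, the counts ranged from 1914 to 3093 genes (lowest without MC-F7 replicate 2) and from 2 to 4 of the 9 tested receptors. In these fits 0 to 3 corepressors, 3 to 5 glucocorticoid genes, 2 to 5 PPAR targets and 1 to 3 ESRRA targets passed.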
